A study of Homo sapiens with 11 samples.

Results

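The RAB small GTPases, a family of membrane-traffic proteins, were examined in PC-3 cells, an established human prostate cancer line, after transfection of small RNA duplexes. Members were all probes of the array whose gene name is RAB followed by a number and at most 1 letter. The rule found 58 genes with 101 probes of the 41000 probes on the array, and it used no measured value. Of these, 84 probes for 50 genes passed a filter on dim probes (signal above background on 6 or more arrays of 11) and entered the tests, as did 27118 probes in all.

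Each array was hybridised with Cy3-labelled RNA of PC-3 cells harvested 24 h after transfection, mixed from 4 transfections. The arrays lay on 3 slides, here called sets. The first set carried 4 arrays: a mock control (sample 1), miR-302a (sample 3), a first miR-372 array (sample 4) and the siRNA dsEcad640 (sample 2). The second set carried 3: miR-520f (sample 6), miR-373 (sample 7) and a further mock control (sample 8). The third set carried 4: 2 mock controls (samples 9 and 11), a second miR-372 array (sample 10) and miR-520c (sample 12). Mock cells received the transfection reagent and no duplex. The miR-520f array carries another miRNA number in its title but miR-520f in every other field, and it was used as miR-520f. dsEcad640 is an siRNA whose sequence matches the E-cadherin promoter, and the other duplexes are copies of human miRNAs. Nothing states that arrays of a group came from separate sets of cultures, so the p-values measure the spread between arrays. In these bulk samples, fewer cells of a kind and less RNA per cell cannot be told apart.

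The comparisons asked what these duplexes do to RAB transcripts, and whether a shift of the seed by 1 base changes that. The seed of a small RNA, bases 2 to 8 from its 5′ end, is the part that pairs with target mRNAs. The mature sequences are shown because they define the groups. Letters in capitals mark the seed, and the sequences are those of RefSeq (GRCh38.p14).
miR-302a: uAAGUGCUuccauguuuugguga
miR-372: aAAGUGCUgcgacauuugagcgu
miR-373: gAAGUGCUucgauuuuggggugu
miR-520c: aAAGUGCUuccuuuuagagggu
miR-520f: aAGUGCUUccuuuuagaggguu
The first 4 miRNAs share the seed AAGUGCU, as does dsEcad640, and these 5 duplexes (6 arrays) are called the common-seed duplexes. In miR-520f the same letters stand at bases 1 to 7, so its seed reads AGUGCUU.

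RAB proteins cycle between a GTP-bound form on membranes and a GDP-bound form in the cytosol. Each marks a particular compartment, where it recruits the effectors that move, tether and fuse vesicles. Exchange factors load them with GTP, GTPase-activating proteins turn them off, and GDI and REP proteins carry their prenylated forms. In epithelial cells they direct secretion, endocytosis and the delivery of junction and receptor proteins to the cell surface.

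All 9 probes for epithelial markers, among them KRT8, KRT18, KRT19 and CDH1, were well above background on all 11 arrays, as were 4 of 9 for prostate luminal markers. Of the markers of other cell types, 1 of 6 leukocyte probes (CD3E), 1 of 4 endothelial probes (PECAM1) and 1 of 8 fibroblast probes (COL1A1) were so on all 11. Of the others, CD14 was so on 10, VWF on 7 and 1, both PTPRC probes on 1 and CDH5 on 0. The part of other cell types in the results was not tested. No spot was saturated. The miR-372 array of set 1 stood apart, where 88.1% of all probes passed the background call, compared with a range of 54.4% to 72.9% elsewhere. Levels below are log2 signals with each array's 75th percentile set to 0, and changes are log2 differences, so that a change of 0 is no difference. Levels of different probes are not comparable. Changes across arrays come from limma with the set as a block, and adjusted p-values are Benjamini-Hochberg values over all tested probes.

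Under the common-seed duplexes transcripts of RAB32, RAB3B, RAB22A and RAB23 were lower than in mock cells on at least 1 probe past the threshold. RAB11A was lower on 1 of its 2 probes and not on the other, and no RAB probe was higher past the threshold. At an adjusted p under 0.05 in limma, 8 of the 84 RAB probes fell (9.52%) and 0 rose, against 2.03% of all 27118 probes that fell and 2.16% that rose, or 4.19% in both directions. At an unadjusted p under 0.05, 17 RAB probes were lower (20.2%, against 9.36% of all probes) and 7 were higher (8.33%, against 11.7%). The median change was -0.09 over the RAB probes and 0.03 over all probes. Of the 84 probes, 40 changed by less than 0.2 in either direction. The share of probes at or below a change of -0.2 was 0.36 for RAB probes and 0.19 for all probes. At or below 0.2 it was 0.83 and 0.74. With the probes of a gene averaged, 3 of 50 RAB genes passed in limma (6%), all of them lower. Of all 19971 genes 384 fell and 436 rose, which is 4.11% in both directions. Of the fits that left out 1 array, the one without mock sample 1 lowered the count of 8 probes most. Leaving it out takes all of set 1 out of this comparison, so the loss is not that of 1 array alone. Without mock sample 1, the sole mock array of set 1, 0 RAB probes and 24 of all probes passed in limma. At an unadjusted p under 0.05 in that fit, 17 RAB probes were lower (20.2%, against 6.79% of all probes) and 3 were higher. Without 1 of the other arrays 3 to 11 RAB probes passed, and the share of all probes that passed moved too. The shares of all probes that follow for calls in limma count both directions. There were 3 without mock sample 8 or miR-373 sample 7 (each against 1.04% of all probes) or mock sample 11 (1.36%). There were 4 without miR-302a sample 3 (1.56%) or miR-372 sample 10 (1.47%), and 5 without dsEcad640 sample 2 (2.37%), mock sample 9 (1.52%) or miR-520c sample 12 (2.17%). Without the array that stood apart, miR-372 sample 4, 11 passed, against 7.14% of all probes. In every one of these fits the RAB calls were downward. Without the set as a block 3 probes passed, those of RAB32 and 1 of RAB22A, against 1.41% of all probes. Neither sets 1 and 2 alone nor set 3 alone gave a call in limma for any probe of the array, and at an unadjusted p under 0.05 they gave 12 and 16 RAB probes lower (7.37% and 5.77% of all probes) and 1 higher each.

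**Figure D1:**
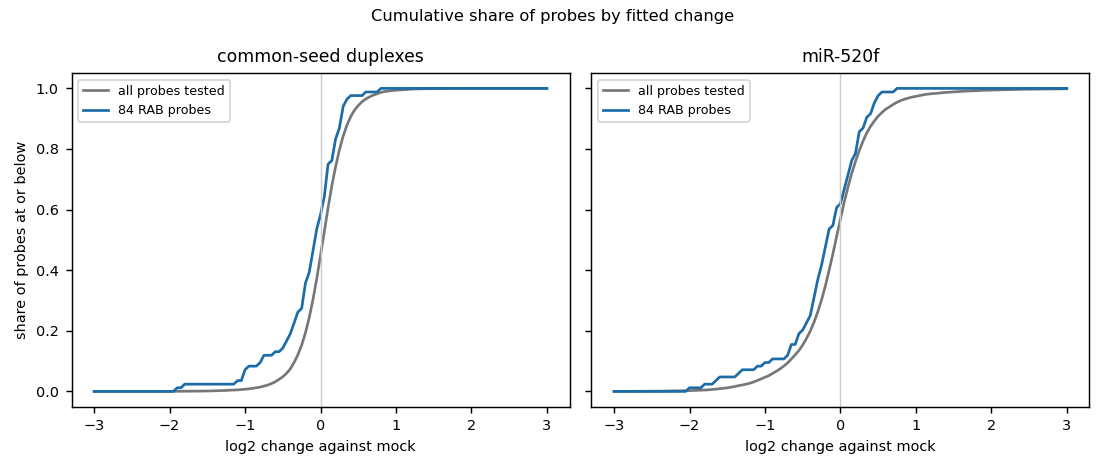
Cumulative share of probes (y axis) at or below each fitted log2 change against mock (x axis), for all tested probes in grey and the 84 RAB probes in blue, under the common-seed duplexes (left) and miR-520f (right). Between -1 and 0 the RAB curve runs above that of all probes, and the medians are -0.09 and 0.03 on the left.

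Within sets, 21 RAB probes (25%) were below the mock of their set on all 6 common-seed arrays, against 11.5% of all probes, and 13 (15.5%) were above it on all 6, against 16.6%. Of those, 6 probes of 4 genes were lower by 1.5-fold or more on every one of the 6 arrays (7.14%, against 0.604% of all probes). These were both RAB32 probes, 2 of RAB3B and 1 each of RAB22A and RAB11A. No RAB probe was higher by that much on all 6, against 0.504% of all probes.

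**Figure D2:**
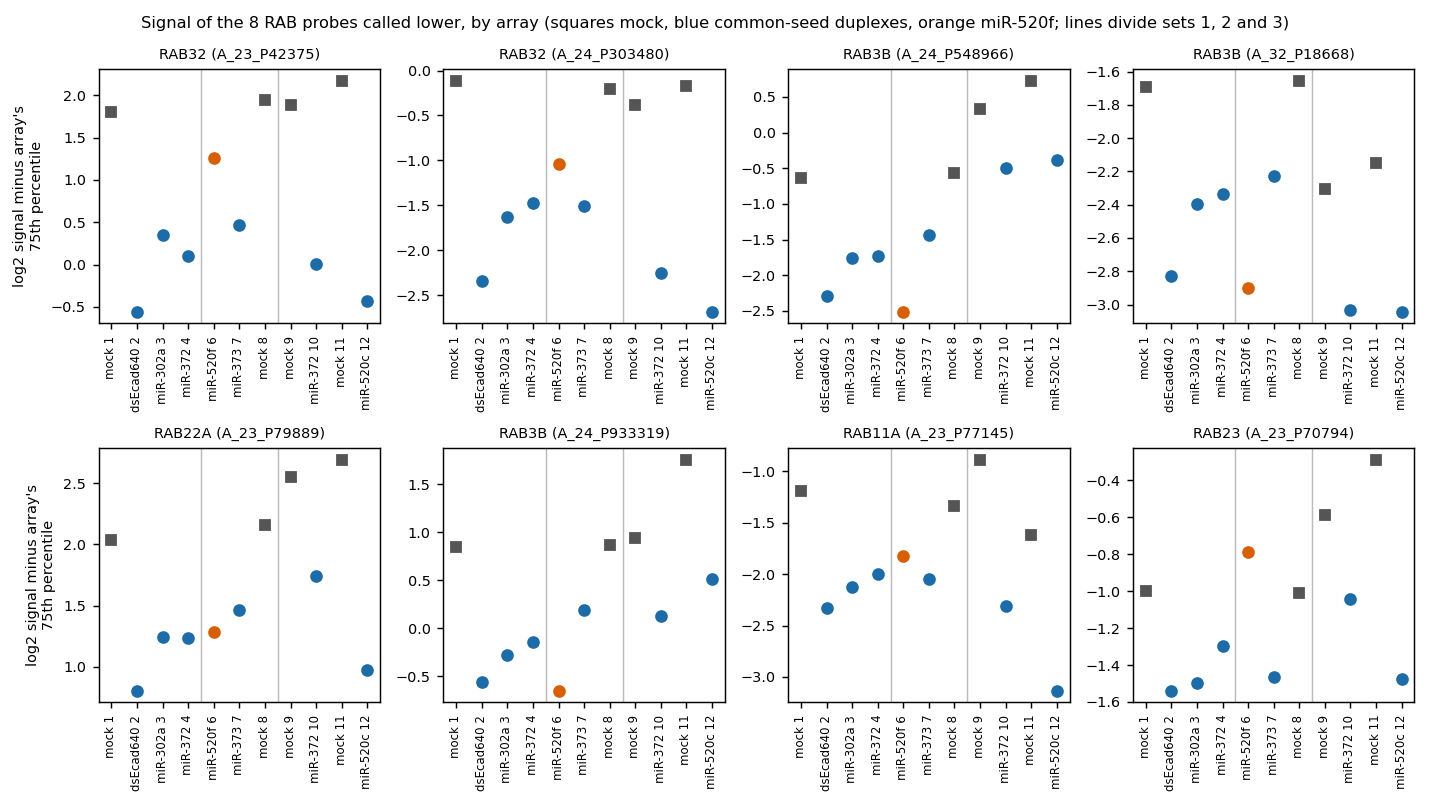
Log2 signal relative to the array's 75th percentile (y axis) of the 8 RAB probes past the threshold on each of the 11 arrays (x axis), with grey squares for mock, blue circles for the common-seed duplexes, orange circles for miR-520f and vertical lines between sets. On every set the blue points lie below the grey squares.

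The largest change was that of RAB32, which directs cargo to lysosome-related organelles. Probe A_23_P42375 (chr6:146917472-146917531, hg18) read 1.81, 1.95, 1.89 and 2.17 on mock samples 1, 8, 9 and 11. On the 6 common-seed arrays it read -0.56 at the lowest, 0.05 at the median and 0.47 at the highest. The groups did not overlap, and all mock arrays lay within a narrow band. The change was -1.94 (SE 0.22, adjusted p = 0.00663 in limma), which is 3.85-fold lower. The differences from the mock of the set were -2.37 under dsEcad640, -1.46 for miR-302a, -1.71 and -2.03 for the miR-372 pair, -1.48 for miR-373 and -2.46 for miR-520c. A second probe, A_24_P303480 (chr6:146917343-146917402), lies 129 bases away. It read -0.11, -0.20, -0.38 and -0.17 on the mock arrays and -2.68 to -1.47 on the common-seed arrays, again with no overlap. Its change was -1.83 (SE 0.22, adjusted p = 0.00813). The 20 alternatives used here and for the probes below are not all separate checks. Leaving out miR-520f, which has its own term in the fit, left the common-seed calls as they were. Leaving out miR-373 or mock sample 8 gave the same calls, since either takes set 2 out of this comparison. Both probes passed the threshold in 17 of 20 alternatives. The exceptions for both were sets 1 and 2 alone, set 3 alone (adjusted p = 0.239 for both) and the fit without mock sample 1, where the first stood at -1.99 (adjusted p = 0.0616) and the second at -1.90 (adjusted p = 0.0730).

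The other genes of late endosomes and lysosomes moved less. None of the 8 further probes past the filter, for RAB7A, RAB9A, RAB9B, RAB24 and RAB34, passed the threshold. RAB9B, which acts between late endosomes and the Golgi, came nearest with probe A_24_P126139 (chrX:102964608-102964667). It read -2.55, -2.78, -2.48 and -2.60 on mock samples 1, 8, 9 and 11 and from -3.27 to -2.74 on the common-seed arrays, which overlapped the mock arrays only across sets. The change was -0.42 (SE 0.10, adjusted p = 0.0577). The second RAB9B probe changed by -0.15 (adjusted p = 0.815). RAB7A, the master RAB of late endosomes, changed by -0.14 (adjusted p = 0.516) and RAB9A by 0.04 (adjusted p = 0.840). The 3 probes of RAB24, linked to autophagy, changed by -0.31, -0.32 and -0.22 with adjusted p-values of 0.256, 0.310 and 0.482, and RAB34, linked to lysosome positioning and cilia, by 0.21 (adjusted p = 0.258). RAB3B, RAB24 and RAB34 are the RAB genes that the study lists as increased or decreased and as holding the seed match AGCACTT in the 3′ untranslated region. That list was drawn up on these same arrays and is no independent evidence of direction, and since it holds only genes listed as changed, other RAB genes may also hold the match. For RAB31 transcripts the study does state complementarity to a seed of the transfected duplexes, without naming the site.

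Among the secretory RABs, 3 of the 11 probes fell (27.3%, against 2.03% of all probes). All were for RAB3B, which controls docking and release of secretory vesicles. RAB3B had 4 probes spread over 11.468 kb of chromosome 1. Probe A_24_P548966 (chr1:52153520-52153579) read -0.64 on mock sample 1 and -0.57 on mock sample 8, but 0.33 and 0.72 on mock samples 9 and 11 of set 3. On the common-seed arrays it read -2.29 at the lowest, -1.58 at the median and -0.38 at the highest. The groups therefore overlapped across sets, while within each set every duplex array was below the mock. The change was -1.05 (SE 0.15, adjusted p = 0.0136), and a fit that left the set out gave -1.31 (adjusted p = 0.205). It passed in 15 of 20 alternatives.

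Probe A_32_P18668 of RAB3B (chr1:52157856-52157915) read -1.69, -1.66, -2.30 and -2.15 on mock samples 1, 8, 9 and 11 and from -3.04 to -2.23 on the common-seed arrays. It changed by -0.76 (SE 0.12, adjusted p = 0.0163), or -0.57 to -1.14 within sets, and passed in 9 of 20 alternatives. Probe A_24_P933319 (chr1:52146428-52146487) read 0.84, 0.87, 0.94 and 1.75 on the mock arrays and -0.55 to 0.51 on the common-seed arrays. The groups did not overlap, and the change was -0.995 (SE 0.19, adjusted p = 0.0314), which passed in 7 of 20 alternatives. The probe A_23_P388168 (chr1:52157896-52157955) had a like change of -0.77 with a wider error (SE 0.22, adjusted p = 0.0911). It was below the mock of its set on all 6 common-seed arrays, with a difference of -0.04 on miR-372 sample 4 and of -0.52 to -1.20 on the other 5.

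The related RAB3D, of secretory granules, was higher on both probes, by 0.29 each, with adjusted p-values of 0.132 and 0.271. Both were above the mock of their set on all 6 common-seed arrays. RAB3A, best known from synaptic vesicles, changed by -0.11 (adjusted p = 0.784) and RAB26, also of secretory vesicles, by -0.011 (adjusted p = 0.985). RAB27A and RAB27B bring secretory lysosomes and exosomes to the cell surface. RAB27A changed by -0.43 and -0.37 on its 2 probes (adjusted p = 0.219 and 0.352) and RAB27B by -0.25 (adjusted p = 0.544). For RAB27A the within-set differences of probe A_23_P54373 were -1.12 under miR-520c and -0.61 under miR-372 in set 3, and -0.24 or nearer to 0 in sets 1 and 2.

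Of the early endosome RABs, 1 of 11 probes fell (9.09%, against 2.03% of all probes). RAB22A, which controls sorting and recycling from early endosomes, was lower on both of its probes. Probe A_23_P79889 (chr20:56368866-56368925) read 2.04, 2.16, 2.55 and 2.69 on mock samples 1, 8, 9 and 11. On the common-seed arrays it read 0.80 at the lowest, 1.24 at the median and 1.74 at the highest, with no overlap. The change was -1.03 (SE 0.19, adjusted p = 0.0274), or 2.04-fold lower, and passed in 11 of 20 alternatives. The second probe, A_32_P179258, lies 5.712 kb away at chr20:56374578-56374637. It read -2.72, -2.66, -2.73 and -3.19 on the mock arrays and -4.88 to -2.77 on the common-seed arrays, which overlapped. Its change was of the same size, -1.05, with a wider error (SE 0.33, adjusted p = 0.113).

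RAB5A, the best known early endosome RAB, changed by 0.05 and -0.05 on its 2 probes (adjusted p = 0.818 and 0.936) and RAB5B by -0.09 (adjusted p = 0.842). RAB21, which sorts integrins, changed by 0.0034 and -0.14 (adjusted p = 0.992 and 0.701). RAB17 changed by 0.30 (adjusted p = 0.671) and RAB20 by 0.26 (adjusted p = 0.637). RAB31, a close relative of RAB22A, is of interest because the study states a seed match for it and measured it by qRT-PCR, but it was dim here. Its probes were well above background on 9 of the 11 arrays. Probe A_24_P236799 read -5.04, -5.20, -4.90 and -3.09 on mock samples 1, 8, 9 and 11, and from -5.44 to -4.13 on the common-seed arrays. The mock arrays thus spanned more than the common-seed arrays, and mock sample 11 was the highest of all. The change was -0.31 (SE 0.38, adjusted p = 0.716), with a 95% interval from -1.19 to 0.56. The other probe, A_23_P141688, read -5.03, -4.90, -4.86 and -3.52 on the mock arrays and changed by -0.05 (95% interval -1.33 to 1.22, adjusted p = 0.974). A fall of RAB31 by 1 lies inside both intervals and was not detectable with these arrays.

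Of the 22 probes for RABs of recycling and of transport to the cell surface, 1 fell (4.55%, against 2.03% of all probes). RAB11A, which marks recycling endosomes, had 2 probes that disagreed. Probe A_23_P77145 (chr15:63968216-63968275) read -1.19, -1.34, -0.89 and -1.62 on mock samples 1, 8, 9 and 11. On the common-seed arrays it read -3.13 at the lowest, -2.22 at the median and -2.0 at the highest, below every mock array. The change was -1.13 (SE 0.23, adjusted p = 0.0396), and it passed in 7 of 20 alternatives. Probe A_24_P124957 (chr15:63957225-63957284), 10.991 kb away, read 1.38, 1.36, 1.56 and 1.83 on the mock arrays and 1.43 to 1.74 on the common-seed arrays. These overlapped fully, and the change was 0.08 (SE 0.08, adjusted p = 0.688). With the probes of a gene averaged, neither RAB11A nor RAB22A passed the threshold. Which transcripts of RAB11A each probe detects was not analysed here.

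The recycling group also held 5 of the 7 RAB probes that were higher at an unadjusted p under 0.05. That was 22.7% of the group, against 11.7% of all probes, and none of the 5 passed the adjusted threshold. RAB35, which acts in fast recycling, changed by 0.57 (SE 0.18, adjusted p = 0.110) on probe A_23_P204482 and was above the mock of its set on all 6 common-seed arrays. Its other probe changed by 0.27 (adjusted p = 0.340). RAB8B, which carries cargo to the plasma membrane, changed by 0.34 (adjusted p = 0.117) on probe A_23_P317465 and by -0.12 (adjusted p = 0.622) on probe A_23_P37535, 3.179 kb away. RAB14, which acts between Golgi and endosomes, changed by 0.78 (adjusted p = 0.167) on the dim probe A_24_P115511 and by 0.08 and 0.014 on its other probes. RAB4B, of early recycling, likewise gave -0.24 and 0.26 on probes of which 1 was dim. RAB10, RAB12, RAB13, RAB15, RAB4A, RAB8A and RAB11B changed by -0.51 to 0.35, with no call.

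Among the 23 probes for RABs of the endoplasmic reticulum and Golgi, 0 passed in limma. At an unadjusted p under 0.05, 3 were lower (13%, against 9.36% of all probes) and 1 was higher (4.35%, against 11.7%). RAB6A, which drives retrograde transport at the Golgi, came nearest. Probe A_24_P13230 (chr11:73064961-73065020) read -0.16, -0.17, 0.05 and -0.08 on mock samples 1, 8, 9 and 11 and from -0.92 to -0.44 on the common-seed arrays. The groups did not overlap, but the change of -0.50 (SE 0.12) had an adjusted p of 0.0663. The second RAB6A probe changed by -0.24 (adjusted p = 0.678). RAB6C, a near copy of RAB6A, changed by -0.49 (adjusted p = 0.128), a value that is uncertain because the 2 genes share sequence. RAB1A and RAB1B, needed for transport from the endoplasmic reticulum to the Golgi, changed by -0.13 to 0.18 on 5 probes, and RAB2A by -0.19 to -0.09 on 3. RAB2B, RAB6B, RAB18, RAB30, RAB33A, RAB33B, RAB36 and RAB43 changed by -0.37 to 0.38 with no call.

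In the remaining group, 1 of 7 probes fell (14.3%, against 2.03% of all probes). RAB23, which holds back Hedgehog signalling at the primary cilium, had 1 probe, A_23_P70794 (chr6:57162174-57162233). It read -1.0, -1.01, -0.59 and -0.29 on mock samples 1, 8, 9 and 11. On the common-seed arrays it read -1.54 at the lowest, -1.47 at the median and -1.04 at the highest, just below the lowest mock array. The change was -0.61 (SE 0.13, adjusted p = 0.0470), and it passed in 6 of 20 alternatives. RAB42, chosen for mention after its value was seen, changed by -0.82 (SE 0.22, adjusted p = 0.0800). RAB28, RAB40A, RAB40B and RAB40C changed by -0.37 to 0.09 with no call.

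**Figure D3:**
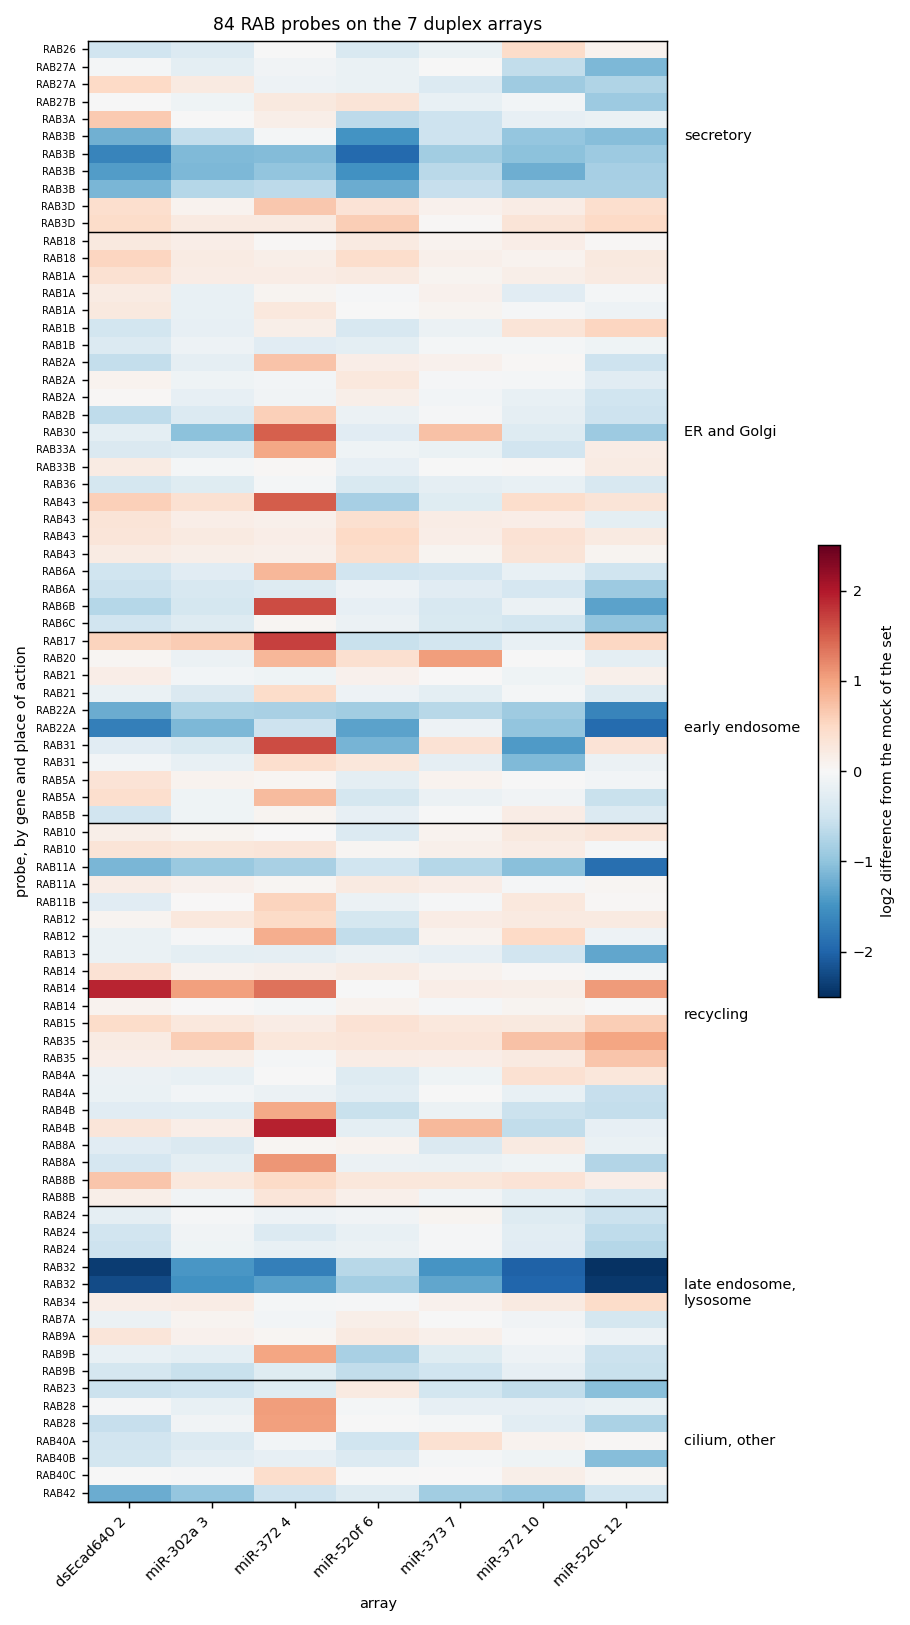
Log2 difference from the mock of the set (colour, blue lower and red higher) of the 84 RAB probes (rows, by gene and place of action) on the 7 duplex arrays (columns). RAB32 forms a blue band across all arrays, as do RAB3B and RAB22A apart from near-white cells. Those include 1 RAB3B probe on miR-372 sample 4 (-0.04) and 1 RAB22A probe on miR-373 sample 7 (-0.12). On miR-372 sample 4, 20 probes are higher by 1.5-fold or more.

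Under miR-520f, with 1 array that was assumed to vary like the others, 1 of the 84 RAB probes fell (1.19%) and 0 rose, against 0.366% and 0.307% of all probes (0.672% in both directions). At an unadjusted p under 0.05 in limma, 10 were lower (11.9%, against 6.46%) and 4 higher (4.76%, against 5.96%). Of all arrays, that of miR-520f had the lowest share of probes above background, 54.4%, and the most outlier spots, 209. The lowest log2 level called above background on it was -4.14, higher than on any other array. The second RAB22A probe, A_32_P179258, read -3.995 there. The probe called was A_24_P548966 of RAB3B, which read -2.51 on the miR-520f array, below every other array. Its change was -2.03 (SE 0.29, adjusted p = 0.0348). Within set 2, all 4 RAB3B probes were lowest on that array, with differences from its mock of -1.94, -1.52, -1.49 and -1.24. The fitted changes of the other 3 probes were -1.68, -1.61 and -1.34, with adjusted p-values of 0.0908, 0.144 and 0.0507. RAB22A changed by -1.04 and -1.80 (adjusted p = 0.263 and 0.273). RAB32 changed by -0.92 and -1.10 (adjusted p = 0.424 and 0.336), and RAB23 by 0.14 (adjusted p = 0.900).

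The difference between miR-520f and the common-seed duplexes was tested in the same fit. It passed the threshold in limma for 0 of the 84 RAB probes, and for 0.0665% of all probes, of which 0.0296% were lower and 0.0369% higher under miR-520f. At an unadjusted p under 0.05, miR-520f was lower than the common-seed duplexes for 5 RAB probes (4.44% of all probes were) and higher for 3 (3.00% were). The RAB3B probe A_24_P548966 differed by -0.99 (95% interval -1.66 to -0.32, adjusted p = 0.366). The difference for the RAB32 probe A_23_P42375 ran the other way, at 1.02 (95% interval 0.07 to 1.98, adjusted p = 0.611), and that for its second probe was 0.73 (interval -0.25 to 1.71, adjusted p = 0.852). RAB23 differed by 0.76 (interval 0.17 to 1.34, adjusted p = 0.489). For RAB22A the first probe differed by -0.02, with an interval from -0.83 to 0.80, which does not show that the duplexes act alike.

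**Figure D4:**
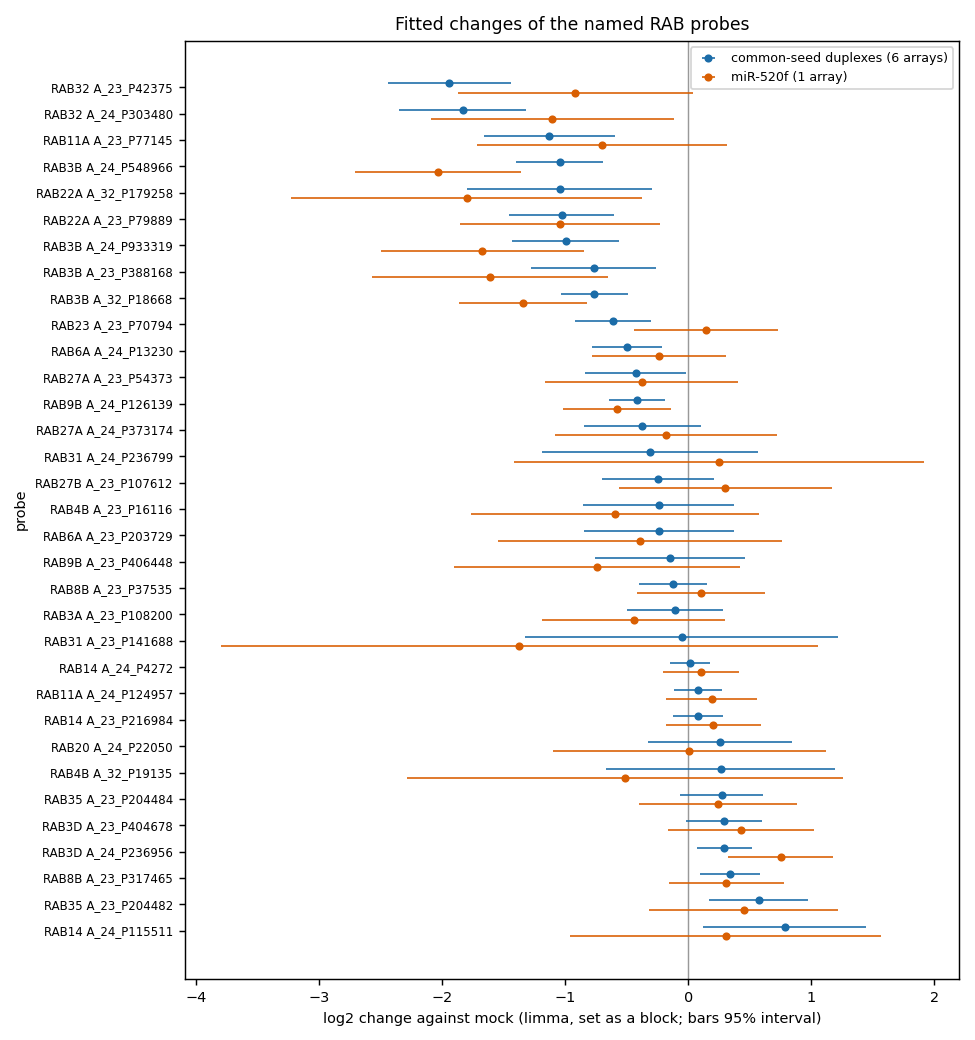
Fitted log2 change against mock (x axis) with its 95% interval for the 33 named RAB probes (y axis), blue for the common-seed duplexes and orange for miR-520f. The orange points of RAB3B lie left of the blue ones and those of RAB32 right of them, and for both genes the intervals overlap.

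Taken array by array, without a test, RAB probes lower by 1.5-fold or more than the mock of their set numbered 13 under dsEcad640 (15.5%, against 10.2% of all probes), 11 under miR-302a (13.1%, against 5.83%) and 7 under miR-373 (8.33%, against 9.18%). They numbered 24 under miR-520c (28.6%, against 11.9%) and 14 under miR-520f (16.7%, against 14.8%). The 2 miR-372 arrays gave 7 in set 1 (8.33%, against 2.61%) and 16 in set 3 (19%, against 4.49%). RAB probes higher by as much numbered 4 under dsEcad640 (5.39% of all probes), 3 under miR-302a (3.56%), 1 under miR-520f (5.73%) and 3 under miR-373 (3.58%). In set 3 they numbered 1 under miR-372 (5.71%) and 4 under miR-520c (14.0%). On miR-372 sample 4, the array that stood apart, 20 RAB probes were higher (23.8%, against 26.0% of all probes). Of those 20, 0 were higher by 1.5-fold on miR-372 sample 10.

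**Figure D5:**
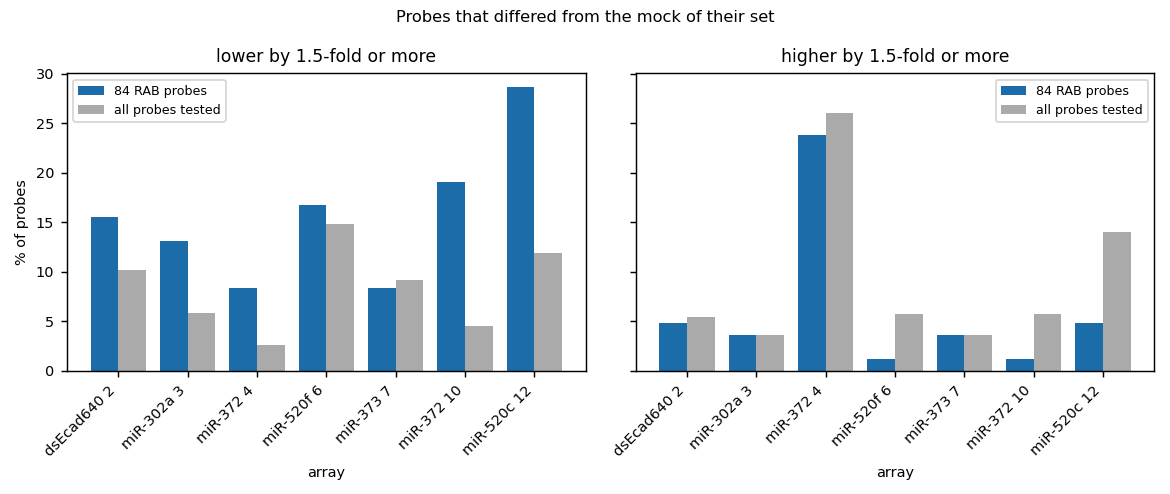
Percentage of probes (y axis) lower (left) or higher (right) by 1.5-fold or more than the mock of the set on each of the 7 duplex arrays (x axis), blue for the 84 RAB probes and grey for all tested probes. The highest blue bar on the left is miR-520c at 28.6%, and both bars on the right are highest for miR-372 sample 4.

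Fitted separately in limma, the 6 duplexes gave 0 RAB calls against mock, with smallest adjusted p-values from 0.266 for miR-520c to 0.965 for miR-302a. At an unadjusted p under 0.05 there were 55 lower (10.9%) and 8 higher (1.59%) among the 504 tests of a RAB probe under a duplex, against 4.04% of all such tests lower and 4.17% higher. Only 2 residual degrees of freedom were left to this fit. They came from the mock pair of set 3, and from miR-372 against mock in set 1 compared with set 3. The latter includes miR-372 sample 4, the array that stood apart.

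The 8 RAB genes with no probe past the filter were RAB3C, RAB5C, RAB7B, RAB25, RAB37, RAB38, RAB39 and RAB39B. RAB25, an epithelial partner of RAB11 in recycling, was well above background on 0 arrays. RAB5C and RAB39B reached at most 4 arrays. No level or change is given for these genes.

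Genes that act on RABs were taken from a fixed list of GDI and REP proteins, exchange factors, GTPase-activating proteins and effectors. Of 188 partner probes past the filter, 3 fell and 3 rose under the common-seed duplexes (1.6% each, against 2.03% and 2.16% of all probes), with a median change of -0.01. Those that fell were RABGAP1, a GTPase-activating protein that binds RAB6 (-1.35, SE 0.22, adjusted p = 0.0190), BICD2, a dynein adaptor that binds RAB6 (-0.46, adjusted p = 0.0459), and OCRL, an inositol phosphatase that many RABs recruit (-0.39, adjusted p = 0.0461). Those that rose were TBC1D13 (0.65, adjusted p = 0.0440), TBC1D24 (0.44, adjusted p = 0.0239) and EVI5 (0.42, adjusted p = 0.0433), all with the domain of RAB GTPase-activating proteins. Under miR-520f 3 partner probes fell and 0 rose in limma (7 were higher at an unadjusted p under 0.05), namely OCRL (-1.34), APPL2, an effector of RAB5 (-1.60), and USP6NL, a GTPase-activating protein for RAB5 (-1.31). Their adjusted p-values were 0.0220, 0.0303 and 0.0458.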

How the data were processed

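The authors scanned Agilent 4x44K arrays and extracted spots with Agilent Feature Extraction (version 10.5.1.1 per the file headers). The deposited scanner files hold spot intensity, and the deposited value table holds log2 values of the authors, whose scale matched log2 of the processed signal (r from 0.994 over 21375 probes) and which served as an alternative. No columns of the authors' own comparisons were used, and none were present. Outlier spots (52 to 209 per array) were dropped, spots of a probe averaged, log2 of the processed intensity taken and the 75th percentile of each array subtracted. Probes well above background on at least 6 of 11 arrays were tested with limma 3.58.1 (R 4.3.3), with the set as a fixed block and groups mock (4), common-seed (6) and miR-520f (1), threshold 0.05. Residual degrees of freedom were 6. Groups came from the sample labels. The number of arrays limits the precision. The script was tested on simulated data. Probe positions are those of the files (hg18), given for 99 of 101 members, and 90 matched a current RefSeq symbol, of which 1 had changed (RAB39 to RAB39A). Named probes were those past the threshold, the 10 of lowest p, the most changed within each set, the 3 that differed most under miR-520f, RAB31, genes whose probes disagree, RAB3 and RAB27 genes, other probes of those genes, and of the partners 3 per direction. Alternatives were other normalizations, filters, no block, gene means, a 2-fold threshold and leaving out each array. Members and lists were chosen with earlier results of these data known.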

Additional observations from a re-analysis of the deposited data

Results flagged for a closer look

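Among 66 groups of arrays of named RAB probes, 10 held 1 array far from the others relative to the group's range, where chance flags about 1 in 20 groups drawn from 1 population. The groups here pool arrays of different sets. Mock sample 11 was that array for 5 probes, namely RAB3B A_24_P933319 (1.75, against 0.84 to 0.94 on the other mock arrays), RAB20 A_24_P22050 (-3.50, against -3.15 to -3.11), RAB31 A_24_P236799 (-3.09, against -5.20 to -4.90), RAB31 A_23_P141688 (-3.52, against -5.03 to -4.86) and RAB22A A_32_P179258 (-3.19, against -2.73 to -2.66). The array miR-520c sample 12 stood apart from the other common-seed arrays for RAB27A A_23_P54373 (-1.65, against -1.14 to -0.90), RAB11A A_23_P77145 (-3.13, against -2.33 to -2.0) and RAB35 A_23_P204484 (3.03, against 2.34 to 2.57). The array miR-372 sample 4 did so for RAB6A A_23_P203729 (-1.54, against -3.25 to -2.66) and RAB4B A_23_P16116 (-2.06, against -3.81 to -3.24). Probes of a gene share its RNA and are not independent.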

How the results depend on the processing

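Main counts were 8 RAB probes under the common-seed duplexes, 6 partner probes, 1 RAB probe under miR-520f, 0 for their difference, 0 for the duplexes fitted separately and 128 within-set differences of 1.5-fold. The difference of miR-520f stayed at 0 in all alternatives, and the median RAB change kept its sign in all of them. The common-seed count was 8 with quantile normalization (9.52%, against 4.65% of all probes) and 6 with median centring (7.14%, against 0.87%). It was 10 with normexp background correction (11.9%, against 5.36%) and 12 with the filter on all 11 arrays (16.4%, against 9.81%). The authors' values gave 11 (15.1%, against 9.41%). With no filter it was 2 (1.98%, against 0.541%), and without the block 3 (3.57%, against 1.41%). These RAB calls were all downward, while the shares of all probes count both directions. With gene means it was 3 of 50 genes (6%, all lower, against 4.11% of all genes in both directions). It was 0 in sets 1 and 2 alone or set 3 alone (both chosen after seeing the data). Leaving out 1 array gave 0 to 11. Of all probes 551 fell and 586 rose, and with each array centred on its median 183 fell and 53 rose. Partner calls were 3 with median centring and 0 with no filter, against 0.87% and 0.541% of all probes. They were 11 with the filter on all 11 arrays (9.81% of all probes), 0 without the block (1.41%) and 13 with the authors' values (9.41%). In sets 1 and 2 or set 3 alone they were 0, as over all probes. With 1 array left out they were 0 to 10, against 0.0885% to 7.14% of all probes. RAB calls under miR-520f were 2 with quantile normalization, the filter on all 11 arrays or the authors' values, and 0 with median centring, no filter, no block, gene means or sets 1 and 2 alone. With 1 array left out they were 0 to 3. Duplexes fitted separately gave 8 calls with median centring, 5 with normexp, 2 in set 3 alone and 0 to 17 with 1 array left out. Within-set differences were 68 with normexp, 60 with gene means, 59 at 2-fold, 83 in sets 1 and 2 alone and 45 in set 3 alone, and 70 to 138 with 1 array left out. Shares of all probes under these alternatives are not given for the miR-520f calls, the separate fits or the within-set differences. Those counts therefore show neither an excess over all probes nor the lack of one. Causes were not tested.

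For the 33 named probes under alternatives, 547 values kept direction and side of the threshold. Of the others, 71 lost the threshold, 11 gained it and 21 turned direction, none of a called probe. These counts include the fit without miR-520f, which repeated the main calls. They also include the fits without miR-373 and without mock sample 8, which gave the same calls as each other. With median centring RAB11A A_24_P124957 changed by -0.0062, RAB14 A_23_P216984 by -0.0057 and RAB14 A_24_P4272 by -0.068. Without the block RAB14 A_23_P216984 changed by -0.042 and RAB3A by 0.13, and with normexp RAB14 A_24_P4272 by -0.0014. In set 3 alone RAB14 A_23_P216984 changed by -0.014, RAB20 by -0.13 and RAB4B A_32_P19135 by -0.41. In sets 1 and 2 alone RAB31 A_23_P141688 changed by 0.34, RAB4B A_23_P16116 by 0.019 and RAB8B A_23_P37535 by 0.036. With 1 array left out the changes ranged from -0.27 to 0.34 for RAB31 A_23_P141688, from -0.57 to 0.057 for RAB31 A_24_P236799, from -0.30 to 0.0086 for RAB3A, from -0.0039 to 0.027 for RAB14 A_24_P4272 and from -0.0040 to 0.45 for RAB4B A_32_P19135. The fit of single duplexes without mock sample 8 was not run, since set 2 then had no mock array. No paired analysis was possible because no replicate number is shared between groups. The set, which groups do share, was the block of the reported fit and the basis of the within-set differences. With 1 array per duplex in most sets, dim probes such as those of RAB31 are the least certain.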
